A study of Mus musculus with 18 samples.

Results

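The collagen genes are the 44 genes, of 19938 measured, whose symbol consists of Col, a type number, the letter a and a chain number. They were taken by name from the platform annotation of the array, with 1 probe set per gene, and include every such gene with a probe set of its own symbol. They were sorted by the form or the tissue of the protein into 7 fibrillar chains, 8 chains of cartilage collagens, 9 of basement membranes, 10 of beaded filaments and other networks, 6 fibril-associated chains and 4 transmembrane chains. The cartilage class takes in the fibril-forming Col2a1, Col11a1, Col11a2 and Col27a1, which the fibrillar class therefore leaves out. Their levels were measured in vestibular organ, which senses balance, from Igf1 null (Igf1 -/-) and wild-type (Igf1 +/+) mice. IGF1, the product of Igf1, is a growth hormone mediator that acts on bone, cartilage, muscle and the ear.

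Late embryos (E18.5), pups (P15) and adults (P90) of either genotype were sampled, giving 6 groups of 3 arrays and 18 arrays in all. All mice shared a hybrid of the Mf1 and 129/sv backgrounds, and all are labelled as perfused with paraformaldehyde before the inner ear was taken. The null allele is constitutive, so every tissue of these mice lacks the gene. The labels call the arrays biological replicates without saying whether an array holds 1 animal or a pool. The p-values therefore cover only array-to-array spread, which may be technical in part. The description field of the wild-type arrays at P15 and P90 names the null genotype, whereas their title, source and genotype fields name the wild type, which was used here.

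Collagens are made of 3 chains wound into a triple helix, in which glycine recurs at every position of the turn next to the axis. Fibrillar collagens (types I, III and V) assemble into the tensile fibres of bone, tendon and loose connective tissue, and types II and XI form the finer fibrils of cartilage, with type IX along their surface and type X in the hypertrophic cartilage that bone replaces. Type IV forms the network of basement membranes, and type VI forms beaded filaments around cells. In the inner ear, types II, IX and XI are also known from the acellular membranes over the sensory epithelia and from the cartilage of the otic capsule before it ossifies.

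Levels are given in log units after quantile normalization. The base of the deposited logarithm is not stated; 1 unit is 2.72-fold if it is e and 2-fold if it is 2. A difference is null minus wild type, or later minus earlier age, with the standard error (SE) of a linear model fitted with limma to all 18 arrays and all 19938 genes. A gene was called when its Benjamini-Hochberg adjusted p was under 0.05. Probe sets differ in brightness, so levels were compared between arrays and not between genes. In bulk tissue, fewer cells of a type and less RNA per cell cannot be told apart.

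Replicate arrays correlated at 0.973 to 0.990. The first principal component of all genes (63.6% of the variance) split E18.5 from the later ages. E18.5 null arrays 2 and 3 and P90 wild-type arrays 1 and 2 stood together on the third (scores 13.5 to 18.8, with the other 14 arrays at -25.0 to 9.92). Igf1 itself read 6.40, 6.88 and 6.51 in the null against 6.98 to 7.07 in the wild type at E18.5, and its difference was -0.43 ± 0.12 (limma adjusted p = 0.16). The difference was -0.41 ± 0.12 at P15 (limma adjusted p = 0.48) and -0.11 ± 0.12 at P90 (limma adjusted p = 0.76). Whether its probes lie in the disrupted stretch is unknown, so Igf1 does not check the labels. At P90 the female transcript Xist read 1.86 to 3.33 in the wild type and 7.42 to 7.91 in the null, so sex makeup differed with genotype at that age. Every E18.5 array held both Xist (7.31 to 8.01) and Y-linked signal (mean of 3 genes, 5.23 to 5.95). The same held for P90 null arrays 2 and 3 (Y-linked mean 5.44 and 5.49). RNA of both sexes was thus present in those arrays. At P15 Xist read 7.61, 8.09 and 4.09 in the null and 7.48, 5.34 and 7.48 in the wild type. The Y-linked mean in the same arrays was 5.69, 3.29 and 6.31, then 5.56, 6.19 and 5.90. P15 null array 1 and wild-type arrays 1 and 3 thus also held both signals, and sex makeup varied between P15 arrays. Hair cell markers (10 genes) averaged 3.54 to 4.35 in every array, against a bound of 3.40 under which the dimmest 20% of genes lay. Markers of vestibular epithelium and otoconia (9 genes) averaged 4.17 to 5.98.

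The results turn first on the cartilage collagens. The stretches of 250 bases before the annotated start of 3 of them and of the type I chain Col1a2 are shown because these genes took different courses with age. They are from RefSeq (GRCm38.p6, plus strand), at chr10:34389731-34389980 for Col10a1, chr4:121039316-121039565 for Col9a2, chr17:34038888-34039137 for Col11a2 and chr6:4505368-4505617 for Col1a2. Capitals mark matches on either strand to the TATA box TATAAA, the CCAAT box, the GC box GGGCGG, the core of SOX sites AACAAT or the core of RUNX sites TGTGGT.
Col10a1: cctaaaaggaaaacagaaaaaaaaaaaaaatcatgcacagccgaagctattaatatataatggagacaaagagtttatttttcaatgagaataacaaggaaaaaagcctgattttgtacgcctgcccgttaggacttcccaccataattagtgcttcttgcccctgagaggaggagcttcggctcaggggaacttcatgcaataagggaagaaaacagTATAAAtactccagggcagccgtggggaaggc
Col9a2: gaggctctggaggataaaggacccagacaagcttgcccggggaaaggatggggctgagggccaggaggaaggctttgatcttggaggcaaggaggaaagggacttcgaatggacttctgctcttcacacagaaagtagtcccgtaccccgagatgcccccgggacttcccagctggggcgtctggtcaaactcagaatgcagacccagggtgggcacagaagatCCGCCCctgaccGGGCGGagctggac
Col11a2: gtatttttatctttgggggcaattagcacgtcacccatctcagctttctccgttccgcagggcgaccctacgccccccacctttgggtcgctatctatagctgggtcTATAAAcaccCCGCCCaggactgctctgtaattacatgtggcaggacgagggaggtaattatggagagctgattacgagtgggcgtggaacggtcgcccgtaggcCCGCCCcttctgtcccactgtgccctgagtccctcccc
Col1a2: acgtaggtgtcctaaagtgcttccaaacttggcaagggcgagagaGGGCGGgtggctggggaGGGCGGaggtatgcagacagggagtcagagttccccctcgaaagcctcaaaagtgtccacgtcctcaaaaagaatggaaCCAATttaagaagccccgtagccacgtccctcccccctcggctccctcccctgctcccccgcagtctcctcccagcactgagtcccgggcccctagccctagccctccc
The TATAAA of Col10a1 lies 32 bases before the start, and that of Col11a2 lies 143 bases before it. Col9a2 holds 2 matches to GGGCGG, at 26 and 14 bases, and Col1a2 holds 2 of GGGCGG and 1 of CCAAT. Of the 44 collagen genes, 35 had such a stretch, with 38 starts between them. TATAAA stood in 5 of the 38 (12.4% of 32851 starts of all genes), CCAAT in 13 (33.8%), GGGCGG in 22 (32.7%), AACAAT in 1 (9.42%) and TGTGGT in 3 (14%). None of the 7 starts of cartilage collagens held the SOX or the RUNX core within this window. These matches are letters in a window and not measured sites.

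From E18.5 to P15 the wild-type organ lowered most of its collagen transcripts. Of the 44 genes, 31 fell and 4 rose, 35 in all, where 41.5% of all genes were called, 21.9% lower and 19.7% higher. The median difference was -0.79 over the collagens and -0.05 over all genes. All 8 cartilage collagens fell, with a median of -2.05, and so did 7 of 10 beaded and network chains (median -1.11), 6 of 9 basement membrane chains (median -0.55), 4 of 6 fibril-associated chains (median -0.91), 3 of 7 fibrillar chains (median 0.06) and 3 of 4 transmembrane chains (median -0.47). Every one of the 9 basement membrane and 10 beaded and network chains was at or below its E18.5 mean.

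**Figure D1:**
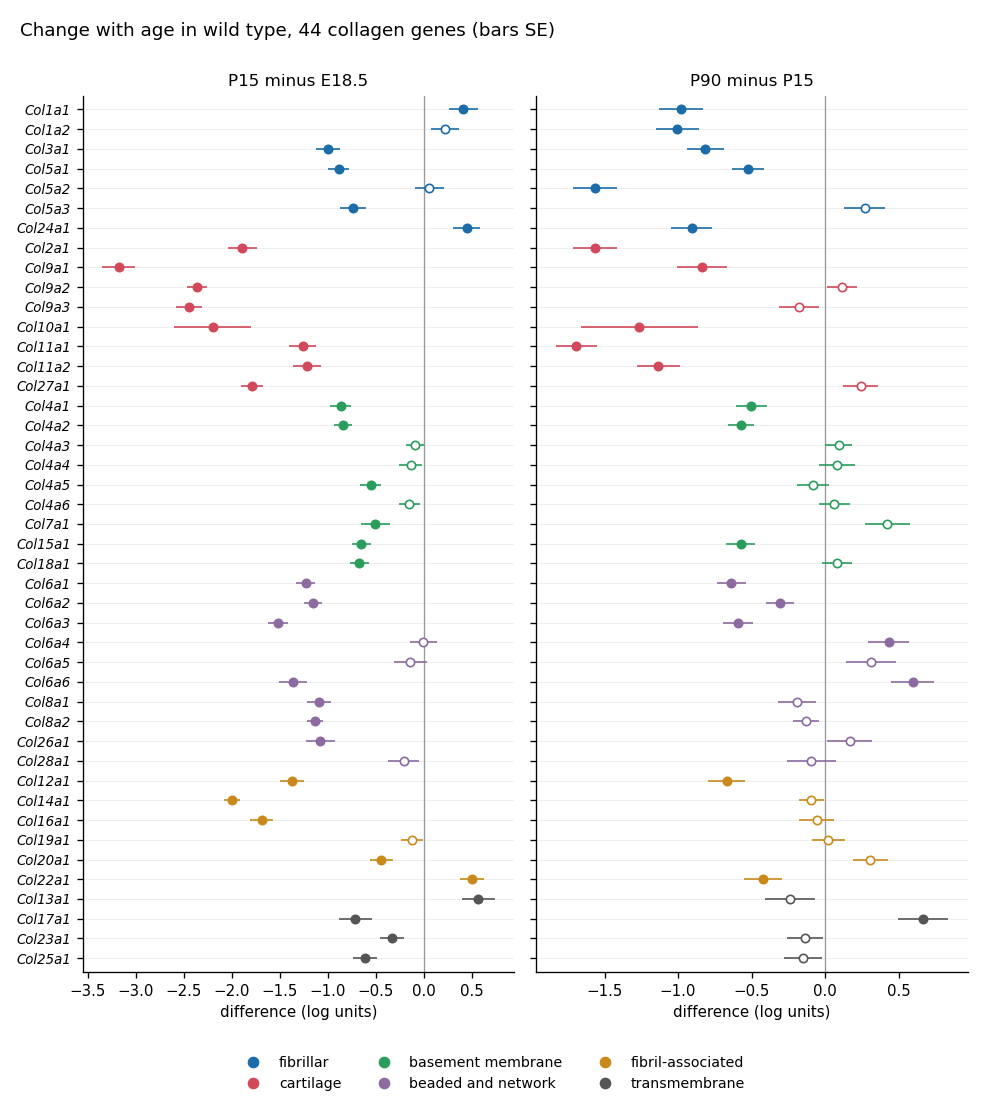
Difference in level (log units) of each of the 44 collagen genes in wild type between E18.5 and P15 (left) and between P15 and P90 (right), coloured by class. Bars are SE, filled points passed the limma adjusted p of 0.05; the horizontal scales of the panels differ. The 8 cartilage collagens lie between -3.18 and -1.22 in the left panel.

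Type IX collagen, which coats the fibrils of cartilage and of the tectorial membrane, fell furthest. Col9a1, its first chain, read 8.90, 8.96 and 8.93 in the wild-type arrays at E18.5, 5.69, 6.11 and 5.46 at P15, then 5.02, 4.99 and 4.74 at P90. The 3 ages did not overlap. Its fall to P15 was -3.18 ± 0.17 (limma adjusted p = 1.8e-09), and that from P15 to P90 was -0.84 ± 0.17 (limma adjusted p = 0.0048). The partner chains fell in the first step and levelled off. Col9a2 changed by -2.37 ± 0.10 and then by 0.11 ± 0.10, and Col9a3 by -2.45 ± 0.14 and then by -0.18 ± 0.14, neither second difference being called (limma adjusted p = 0.47 and 0.38).

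Types II and XI, the fibril-forming chains of cartilage, fell in both steps. Col2a1, the single chain of type II, read 8.82, 8.79 and 8.82 at E18.5, 7.04, 7.10 and 6.62 at P15, then 5.46, 5.38 and 5.21 at P90 in wild type. Its falls were -1.89 ± 0.15 and -1.57 ± 0.15 (limma adjusted p = 8.4e-08 and 2.6e-05). Col11a1, which sets fibril diameter with type II, read 8.58, 8.56 and 8.54, then 7.23, 7.54 and 7.13, then 5.57, 5.65 and 5.61. It changed by -1.26 ± 0.14 and -1.69 ± 0.14, so the second step was the larger in value. Col11a2 changed by -1.22 ± 0.14 and -1.13 ± 0.14. Col27a1, a fibrillar chain of the cartilage of growing skeleton, changed by -1.79 ± 0.12 and then by 0.24 ± 0.12 (limma adjusted p = 0.16).

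Col10a1, the network collagen of hypertrophic chondrocytes, of the wild type read 7.48, 7.18 and 7.28 at E18.5, 4.98, 5.60 and 4.76 at P15, then 3.73, 4.11 and 3.71 at P90. The ages did not overlap, and the first fall was -2.20 ± 0.40 (limma adjusted p = 0.00033). The second, -1.26 ± 0.40, was called at an adjusted p of 0.04 in limma, and that call ended without any 1 of P15 wild-type arrays 1 and 2 or P90 wild-type arrays 1, 2 and 3 (differences -1.44 to -1.02 over the single arrays left out). It also ended on the values as deposited, with the Y-linked level as a covariate and with a term for the 4 apart arrays (limma adjusted p = 0.06, 0.053 and 0.07). The difference was -1.40 without those 4 arrays, which left a single P90 wild-type array. Markers of cartilage other than collagens (Acan, matrilins and others, 10 genes) moved with this class. All 10 of 10 fell from E18.5 to P15, with a median of -2.80, and their mean level per array, 7.54 to 7.64 at E18.5, was 4.53 to 4.92 at P15. Their part in the fall of the cartilage collagens was not tested.

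**Figure D2:**
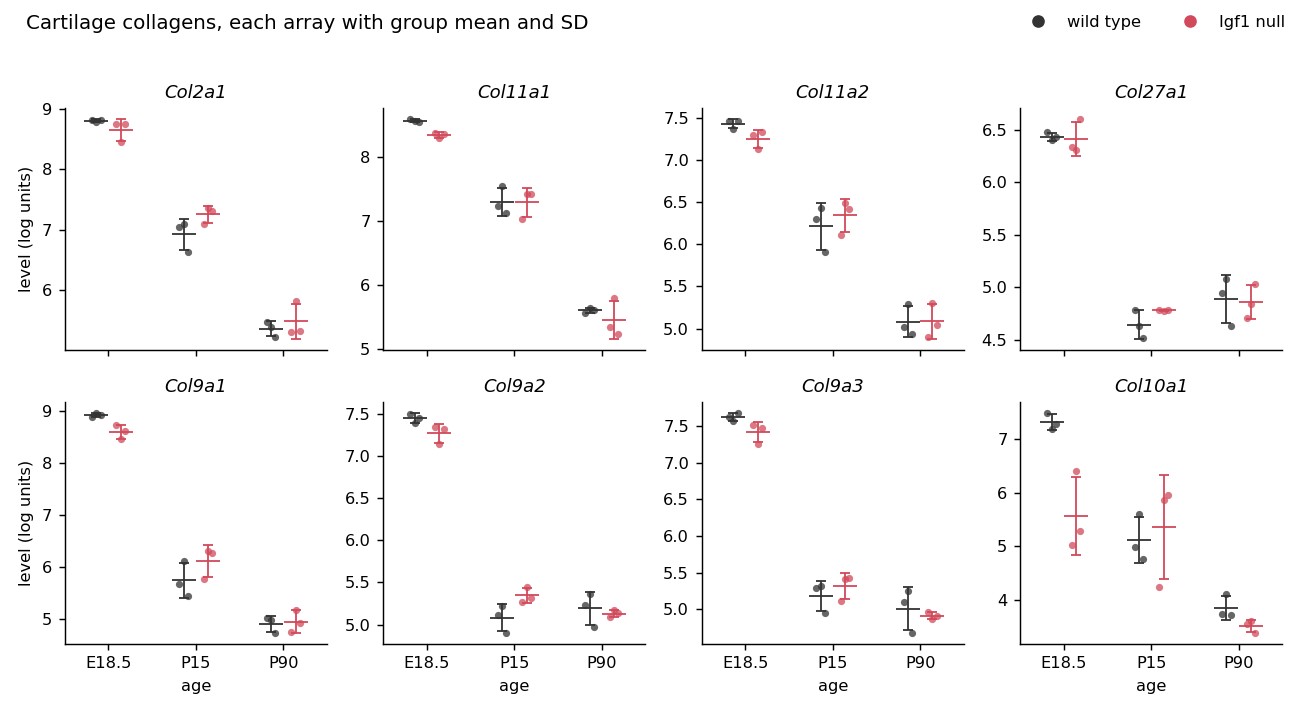
Level (log units) of the 8 cartilage collagens in each of the 18 arrays by age, wild type in black and Igf1 null in red. Points are arrays, dashes are group means and bars are SD (n = 3); the vertical scales differ and do not start at 0. Col10a1 in the E18.5 null arrays spreads from 5.03 to 6.40, below the wild-type arrays at 7.18 to 7.48.

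The type I chains, the main fibre of bone and tendon, did not follow the cartilage collagens. Col1a1 of the wild type read 8.72, 8.76 and 8.72 at E18.5, 9.26, 9.13 and 9.05 at P15, then 8.02, 8.17 and 8.30 at P90. P15 was the highest age in every array. The rise of 0.41 ± 0.15 had a limma adjusted p of 0.037, and the call ended without any 1 of the E18.5 and P15 wild-type arrays other than P15 array 3 (limma adjusted p 0.07 to 0.12 in those 5 fits) and with array medians subtracted, where the difference was 0.14. It ended as well on the values as deposited (0.43, limma adjusted p = 0.073). Without the 4 apart arrays the difference was 0.41 and was not called. Col1a2, its partner in the type I helix, read 8.79, 8.82 and 8.90, then 9.13, 9.08 and 8.96, a difference of 0.22 ± 0.15 that was not called (limma adjusted p = 0.25). From P15 to P90 both fell, Col1a1 by -0.98 ± 0.15 and Col1a2 by -1.01 ± 0.15 (limma adjusted p = 0.00085 and 0.00061). Of 6 bone markers measured, 6 rose from E18.5 to P15 (median 1.87) and 4 fell from P15 to P90. Their part in the course of the type I chains was not tested.

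Among the other fibrillar chains, Col3a1, which accompanies type I in elastic tissue, fell in both steps. It read 8.29, 8.18 and 8.30 at E18.5, 7.31, 7.44 and 7.04 at P15, then 6.58, 6.28 and 6.50 at P90, with no overlap between ages. The falls were -0.99 ± 0.13 and -0.81 ± 0.13 (limma adjusted p = 1.1e-05 and 0.00089). Col5a1, a regulator of fibril diameter, changed by -0.89 ± 0.11 and -0.52 ± 0.11, and Col5a3 by -0.74 ± 0.14 and 0.27 ± 0.14, the last not called. Col5a2 held its level to P15 in value (0.06 ± 0.15) and then fell by -1.56 ± 0.15 (limma adjusted p = 2.9e-05). Col24a1, a fibrillar chain of ossifying skeleton, rose by 0.45 ± 0.14 (limma adjusted p = 0.019) and then fell by -0.91 ± 0.14. The rise was no longer called without E18.5 wild-type array 3 or P15 wild-type array 2, the latter giving 0.32.

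**Figure D3:**
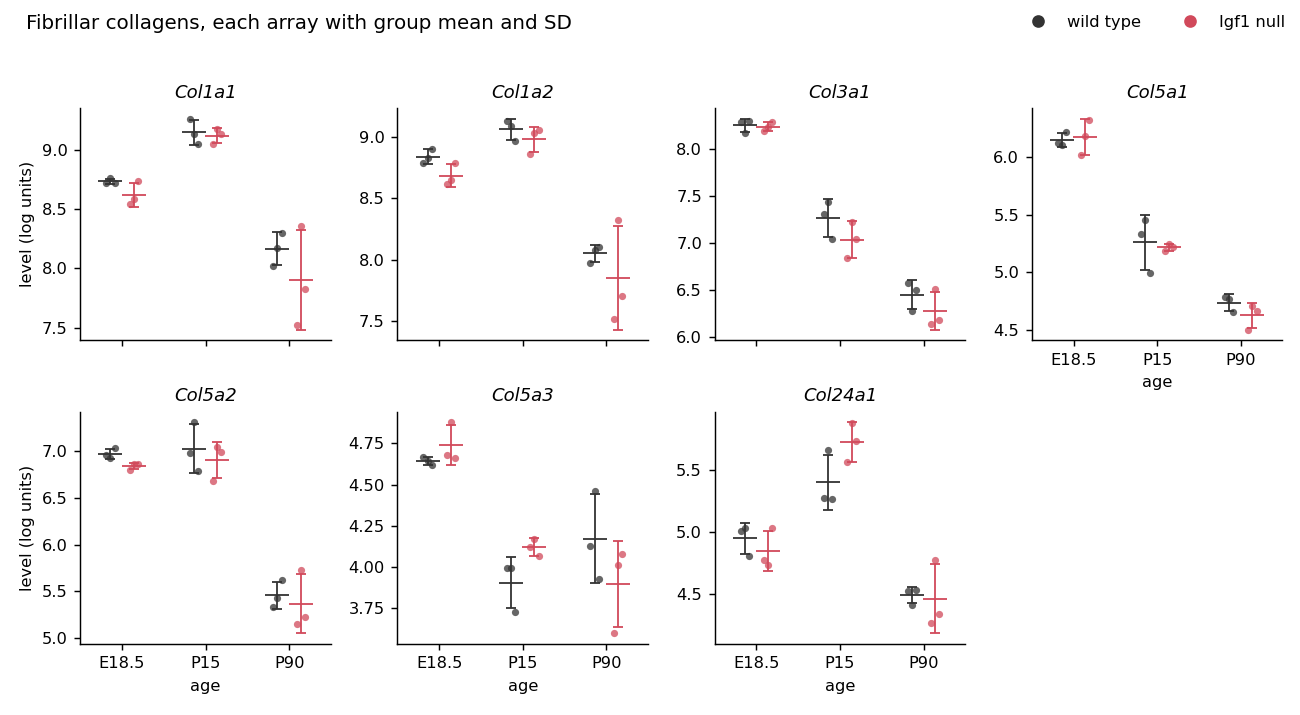
Level (log units) of the 7 fibrillar collagens in each of the 18 arrays by age, wild type in black and Igf1 null in red. Points are arrays, dashes are group means and bars are SD (n = 3); the vertical scales differ and do not start at 0. Col1a1 is highest at P15 (9.05 to 9.26 in wild type) and Col3a1 is lower at each later age.

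Basement membrane chains did not all take the same course. Type IV trimers are built from Col4a1 with Col4a2 in nearly all basement membranes, and from Col4a3, Col4a4, Col4a5 and Col4a6 in more restricted ones, among them those of the inner ear. Col4a1 read 6.21, 6.18 and 6.32 at E18.5, 5.47, 5.53 and 5.11 at P15, then 4.93, 4.95 and 4.73 at P90, and Col4a2 kept close to the same course with group means of 6.19, 5.35 and 4.77. Col4a1 fell by -0.87 ± 0.11 and -0.50 ± 0.11 (limma adjusted p = 8e-06 and 0.0064), and Col4a2 by -0.84 ± 0.09 and -0.57 ± 0.09.

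The restricted chains moved less. Col4a5 fell by -0.55 ± 0.11 to P15 (limma adjusted p = 0.00076). Col4a3, Col4a4 and Col4a6 differed by -0.09 ± 0.09, -0.14 ± 0.12 and -0.15 ± 0.11 in that step and by 0.09 ± 0.09, 0.08 ± 0.12 and 0.06 ± 0.11 in the next, none called. These 3 probe sets were among the dimmest of the collagens, with highest group means of 4.00, 4.12 and 3.86. Endostatin-bearing Col18a1 and its relative Col15a1 fell to P15 by -0.67 ± 0.10 and -0.65 ± 0.10, and Col15a1 fell again to P90 by -0.57 ± 0.10.

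**Figure D4:**
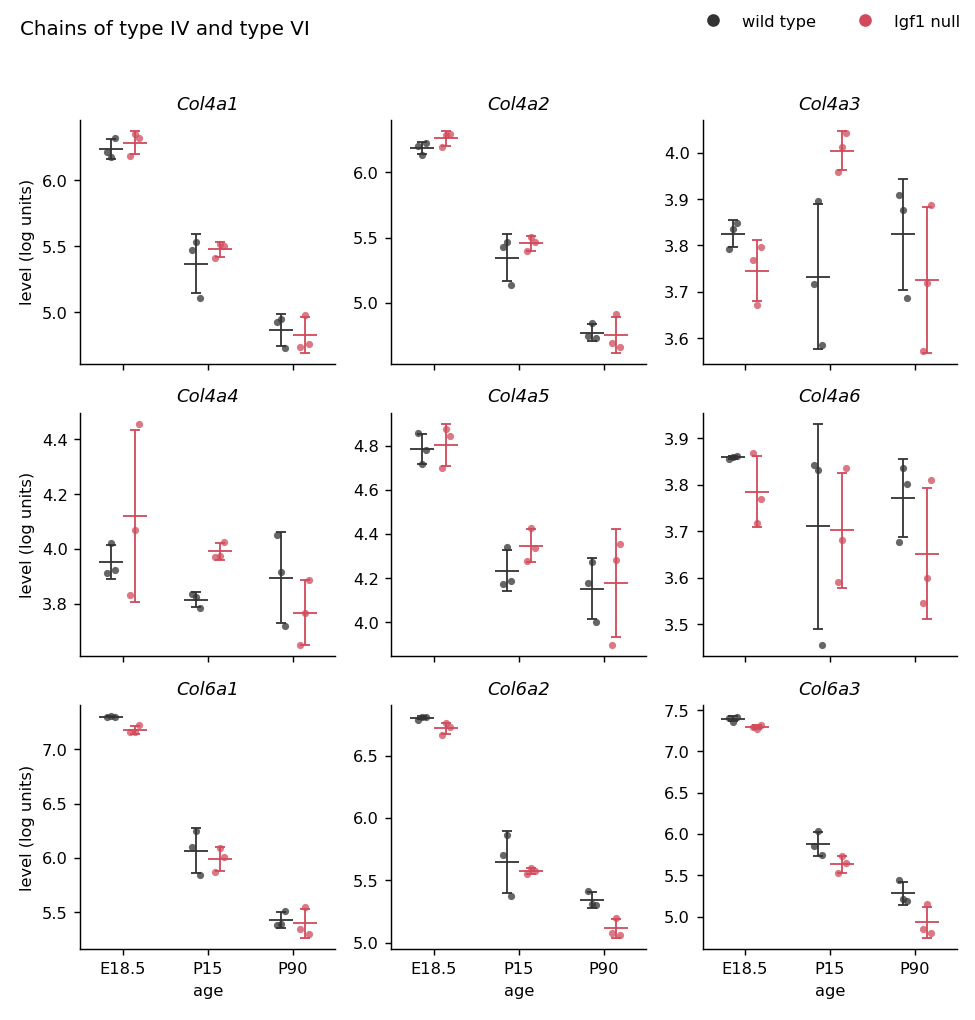
Level (log units) of the 6 type IV chains and of Col6a1, Col6a2 and Col6a3 in each of the 18 arrays by age, wild type in black and Igf1 null in red. Points are arrays, dashes are group means and bars are SD (n = 3); the vertical scales differ and do not start at 0. Col4a1 and Col4a2 are lower at each later age, whereas Col4a3 and Col4a4 stay between 3.57 and 4.46.

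The 3 chains of the common type VI filament fell together. Col6a3, the largest of them, read 7.41, 7.36 and 7.41 at E18.5, 5.86, 6.04 and 5.74 at P15, then 5.44, 5.21 and 5.19 at P90. Its falls were -1.52 ± 0.10 and -0.59 ± 0.10 (limma adjusted p = 1.6e-08 and 0.0018). Col6a1 fell by -1.23 ± 0.10 and -0.64 ± 0.10, and Col6a2 by -1.15 ± 0.10 and -0.30 ± 0.10. The fibril-associated Col14a1, found along type I fibrils, read 7.983, 7.999 and 7.962 at E18.5 and 6.03, 6.10 and 5.81 at P15. It fell by -2.00 ± 0.09 (limma adjusted p = 2.9e-10) and then differed by -0.09 ± 0.09. Col22a1, a collagen of tissue junctions, went the other way, from 4.83, 4.74 and 4.78 to 5.34, 5.39 and 5.12, a rise of 0.50 ± 0.13 (limma adjusted p = 0.0054). The transmembrane Col13a1 rose by 0.57 ± 0.17 (limma adjusted p = 0.014), but not without P15 wild-type array 2, where it was 0.48 with an adjusted p of 0.06.

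From P15 to P90, 22 of the 44 collagens were called in wild type, where 17.9% of all genes were, with 19 lower (9.78% of all genes) and 3 higher (8.08%). The median was -0.17 over the collagens and 0.01 over all genes. The fibrillar class (6 of 7 lower, median -0.91) and the cartilage class (5 of 8 lower, median -0.99) held the larger falls, whereas the basement membrane class had 3 of 9 lower and a median of 0.06. The 3 that rose were Col17a1, the hemidesmosome collagen, by 0.66 ± 0.17, Col6a6 by 0.60 ± 0.15 and Col6a4 by 0.43 ± 0.14. None of these 3 rises was called when a term was fitted for the 4 apart arrays, nor without P90 wild-type array 1 or array 2. Col6a4 also lost its call with a replicate block, another variance prior, the Y-linked covariate or the compared arrays alone. It lost it too without P15 wild-type array 2 or 3 (limma adjusted p 0.055 to 0.165 over these fits). Col6a6 lost its call on the compared arrays alone (0.065) and Col17a1 without P15 wild-type array 3 (0.059). Col6a6 has 2 probe sets, and with their mean its difference was 0.20 (limma adjusted p = 0.19). The split rested on the scaling, with 12 higher and 13 lower on the values as deposited and 6 higher and 21 lower with array medians subtracted. Leaving out the 4 apart arrays left a single array each in the P90 wild-type and E18.5 null groups. Col2a1 then differed by -1.71, Col11a1 by -1.69, Col5a2 by -1.41 and Col11a2 by -1.28. The 3 rises were then 0.45 for Col17a1, 0.28 for Col6a6 and 0.25 for Col6a4.

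Igf1 null organ went through the same steps with similar counts. From E18.5 to P15, 33 collagens were called, where 40.8% of all genes were, 29 lower (20.5%) and 4 higher (20.3%). From P15 to P90, 20 were called, where 13% of all genes were, all lower (6.83%, with 6.12% higher). On the values as deposited the second split was 10 higher and 11 lower. Col9a1 fell by -2.49 ± 0.17 and -1.16 ± 0.17 in the null, and Col2a1 by -1.40 ± 0.15 and -1.78 ± 0.15. Col10a1 differed by -0.21 ± 0.40 in the first step (limma adjusted p = 0.71) and fell by -1.85 ± 0.40 in the second (limma adjusted p = 0.007). Whether the steps differ between genotypes was tested directly. None of the 44 differed in either step by limma (6 and 4 at an unadjusted p under 0.05, with 8.51% and 6.43% of all genes), where 0.145% and 0.015% of all genes did, and none by the F-test over the 3 ages (5 at an unadjusted p under 0.05), where 14.5% of all genes were under that p and 0.256% were called. For Col10a1 the difference of the first steps was 1.99 ± 0.56 (limma adjusted p = 0.27). Without P15 null array 1, which read 4.24 against 5.87 and 5.96 in its group, that difference was 2.55 and was called at an adjusted p of 0.03 by limma.

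Between genotypes at a single age, no collagen gene was called by limma at E18.5, P15 or P90 or for the mean over ages. Of all genes, 0.0802%, 0.015%, 0.296% and 0.0351% were called in those 4 comparisons. The unadjusted p was under 0.05 for 1 collagen at E18.5 (12.5% of all genes), 7 at P15 (6.97%), 5 at P90 (11.1%) and 5 for the mean (7.68%). Arrays were simulated with 1 spread per gene shared by all groups and noise independent between arrays. They did not imitate the arrays standing apart or the wide spread of Col10a1 in the E18.5 null (SD 0.73, wild type 0.15). Changes of 0.5, 1 and 2 log units were given to 67, 67 and 66 of 19938 genes, drawn from all those measured, in the E18.5 null. The simulated E18.5 comparison recovered 49.3% of changes of 0.5 log units, 88.1% of changes of 1 and 98.5% of changes of 2. In that setting changes of 0.5 were often missed with 3 arrays a group. Recovery depends on how many genes change and by how much, so these rates set no bound for the collagens or for P15 and P90.

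**Figure D5:**
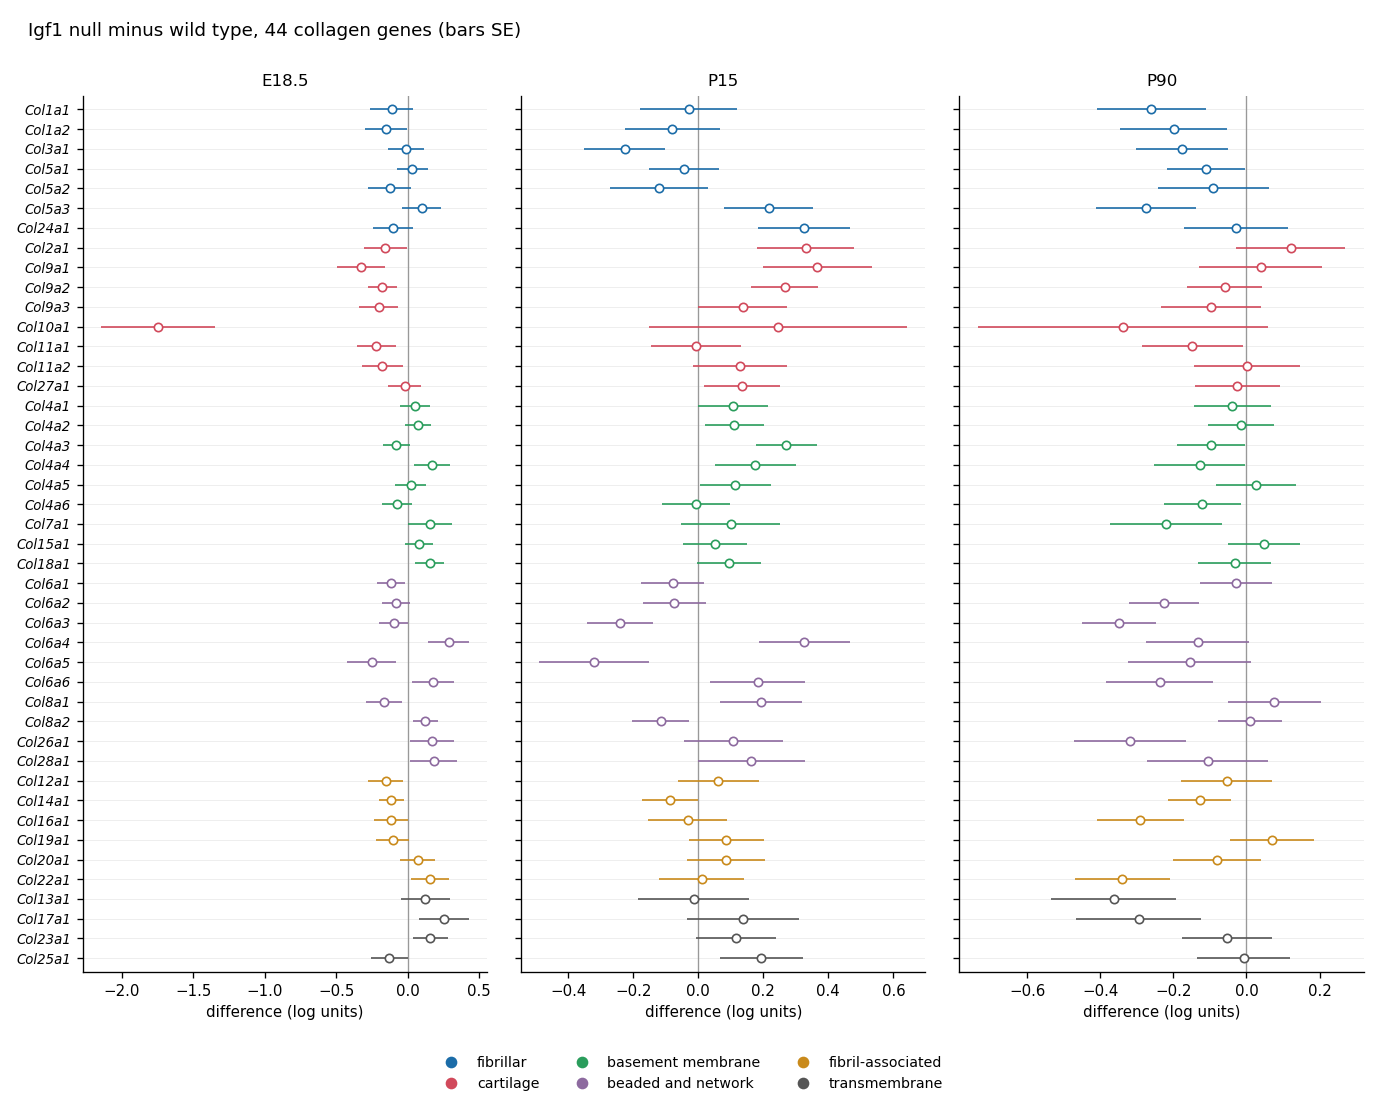
Difference in level, Igf1 null minus wild type (log units), of each of the 44 collagen genes at E18.5, P15 and P90, coloured by class. Bars are SE; open points did not pass the limma adjusted p of 0.05, which none did, and the horizontal scales differ. Col10a1 at E18.5 (-1.75) lies apart from the other 43 genes, which lie between -0.33 and 0.28.

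At E18.5 the widest difference was that of Col10a1. The null arrays read 5.03, 6.40 and 5.27 and the wild-type arrays 7.48, 7.18 and 7.28, so every null array lay below every wild-type array and the null arrays spread more. The difference was -1.75 ± 0.40 (limma adjusted p = 0.11, unadjusted p = 0.00052). It ran from -2.16 to -1.48 when single arrays were left out (adjusted p 0.081 to 0.28) and from -2.29 to -1.75 under the other alternatives (adjusted p 0.064 to 0.38). At P15 the null arrays read 4.24, 5.87 and 5.96 and the wild type 4.98, 5.60 and 4.76, which overlapped. At P90 the null read 3.55, 3.60 and 3.38 against 3.73, 4.11 and 3.71, which did not overlap, with a difference of -0.34 ± 0.40 (limma adjusted p = 0.78). That SE and p rest on a spread shared by all groups and not on the P90 arrays alone. The SD at P90 was 0.12 in the null and 0.22 in the wild type, against 0.73 and 0.97 in the null at E18.5 and P15.

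The other cartilage chains were lower in the E18.5 null in value as well. All 8 of the class had differences below 0 (median -0.19, all genes -0.02, of which 45.6% lay above 0), and the arrays of 7 of the 8 did not overlap. In all, 14 of 44 collagens lay wholly lower in the null, where 11.7% of all genes did, and none lay wholly higher (7.95%). Beside the 7 cartilage chains these were 4 beaded and network, 2 fibril-associated and 1 fibrillar chain. For all 14 the highest group mean lay at percentile 86.5 of all genes or above, and bright genes were not compared alone. Fibrillar chains were lower in 5 of 7 (median -0.10), fibril-associated chains in 4 of 6 (-0.11) and beaded and network chains in 5 of 10 (0.02). Col9a1 read 8.73, 8.47 and 8.62 in the null against 8.90 to 8.96 in the wild type (-0.33 ± 0.17, limma adjusted p = 0.43). Col11a1 read 8.37, 8.29 and 8.36 against 8.54 to 8.58 (-0.22 ± 0.14), Col9a2 differed by -0.18 ± 0.10, and Col2a1 read 8.76, 8.45 and 8.76 against 8.79 to 8.82 (-0.16 ± 0.15). All 8 stayed below 0 on the values as deposited and with array medians subtracted. On those scalings the median of all genes was itself -0.15 and -0.12, so they could hardly turn the sign of this class. With single arrays left out, 7 or 8 stayed below 0. The largest difference the other way was that of Col6a4, a type VI chain with a dim probe set and second by p among the 44. It read 3.516, 3.615 and 3.787 in the null against 3.605, 3.297 and 3.161 in the wild type, which overlapped (0.28 ± 0.14, limma adjusted p = 0.42). Without null array 3 the count of collagens wholly lower was 22, and without null array 1 the count wholly higher was 13. Without null arrays 2 and 3, a single null array lay below the wild type for 29 and above it for 3.

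Other tissues moved with genotype at E18.5. Of 10 skeletal muscle markers, 4 rose in the null, whose mean marker level per array was 7.12 to 7.47 against 6.25 to 6.73. The 10 cartilage markers other than collagens averaged 7.33 to 7.41 in the null against 7.54 to 7.64, and the 6 bone markers 4.08 to 4.47 against 4.62 to 4.99, with none of either list called. Their part in the collagen differences was not tested. Basement membrane chains had a median of 0.07 at E18.5 (7 of 9 higher), which turned to -0.07 on the values as deposited, -0.04 with array medians subtracted and -0.06 when a term was fitted for the 4 apart arrays. The median of all genes was -0.02 after quantile normalization, -0.15 on the values as deposited and -0.12 with array medians subtracted. The class median thus lay above that of all genes on each of these scalings.

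At P15 the cartilage class lay on the other side of 0. Of its 8 chains 7 were higher in the null in value, with a median of 0.19 (all genes 0.01, of which 53.7% lay above 0), among them Col9a1 (0.37 ± 0.17), Col2a1 (0.33 ± 0.15) and Col9a2 (0.27 ± 0.10). Col9a2 read 5.27, 5.45 and 5.32 in the null against 5.12, 5.22 and 4.90 in the wild type, without overlap (limma adjusted p = 0.6). The cartilage median ran from 0.07 without P15 wild-type array 3 to 0.29 without P15 wild-type array 2. The lean was not confined to cartilage, as 29 of the 44 collagens were higher in the null (median 0.10) and 15 lower. Higher were 8 of 9 basement membrane chains (median 0.11) and 3 of 4 transmembrane chains (median 0.13), but 2 of 7 fibrillar chains (median -0.04). The smallest p was that of Col4a3, a chain of the restricted type IV network, at 3.96, 4.01 and 4.04 in the null against 3.72, 3.90 and 3.59 (0.27 ± 0.09, limma adjusted p = 0.53). Col6a4 at 0.33 ± 0.14 and Col24a1 at 0.33 ± 0.14 were also among the 5 with the smallest p, with overlapping arrays and limma adjusted p of 0.67 for both. In all, 6 collagens lay wholly higher in the null, where 8.75% of all genes did, and 2 wholly lower (7.75%). Those counts were 15 higher without wild-type array 2 and 11 without null array 1, and 10 lower without wild-type array 3. Several marker lists lay apart at P15, with no gene of them called. Skeletal muscle markers averaged 5.36 to 5.72 in the null against 5.93 to 6.21, tendon and dermis markers 5.06 to 5.29 against 5.44 to 5.59 (0 of 7 higher) and otic fibrocyte markers 5.64 to 5.69 against 5.33 to 5.57 (6 of 7 higher). Bone markers were higher in 6 of 6 (7.06 to 7.32 against 6.67 to 7.15), and the 10 cartilage markers overlapped, at 4.41 to 4.99 against 4.53 to 4.92 (7 of 10 higher). The part of these tissues in the collagen differences was not tested.

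At P90 the type VI chain Col6a3 had the smallest p. It read 4.84, 5.15 and 4.80 in the null against 5.44, 5.21 and 5.19 in the wild type, without overlap, a difference of -0.35 ± 0.10 (limma adjusted p = 0.21). It was lower in the null at the other ages too, by -0.10 ± 0.10 at E18.5 and -0.24 ± 0.10 at P15, again without overlap, and the mean over ages was -0.23 ± 0.06 (limma adjusted p = 0.23, unadjusted p = 0.0013). Its partners differed less at P90, with Col6a2 at -0.23 ± 0.10 and Col6a1 at -0.03 ± 0.10. Col22a1 (-0.34 ± 0.13), Col16a1 (-0.29 ± 0.12) and Col13a1 (-0.36 ± 0.17) followed by p, none called (limma adjusted p = 0.36, 0.4 and 0.45). Fitted alongside a term for the 4 apart arrays, Col13a1 was at 0.016.

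Wholly lower at P90 were 3 collagens, Col10a1, Col6a2 and Col6a3, where 4.06% of all genes were, and none was wholly higher (6.42%). Without P90 wild-type array 3 the count lower was 15, without null array 2 it was 13 and without null array 3 it was 6. Without the 4 apart arrays, which left a single wild-type array, 6 were wholly lower and 7 wholly higher, and on the values as deposited the counts were 2 and 1. Of the 44, 36 had differences below 0 (median -0.10, all genes 0.01, of which 53.6% lay above 0). On the values as deposited, where the median of all genes was 0.17, 15 were below 0 and 29 above it. Without the 4 arrays that stood apart 23 were below and 21 above. Vestibular epithelium and otoconia markers averaged 4.58 to 4.91 in the null against 4.17 to 4.36, with 1 of 9 called higher. Otic fibrocyte markers (7 of 7 higher) averaged 5.42 to 5.88 against 5.28 to 5.34 and hair cell markers (8 of 10 higher) 3.78 to 4.00 against 3.54 to 3.68, with none called. Cartilage markers other than collagens were higher in 9 of 10 (median 0.38, none called, 4.24 to 4.65 against 4.10 to 4.29), whereas the cartilage collagens had a median of -0.04. Skeletal muscle markers were higher in 0 of 10 and tendon and dermis markers in 1 of 7. Sex differed with genotype at this age too, and the part of sex and of these tissues was not tested. With the level of Y-linked genes as a covariate, 31 of 44 were below 0.

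The machinery that makes and reads collagen was followed in lists of its genes. In wild type, 21.9% of all genes were called lower and 19.7% higher from E18.5 to P15, and 9.78% lower and 8.08% higher from P15 to P90. Procollagen is hydroxylated and folded in the endoplasmic reticulum, trimmed outside the cell and cross-linked by lysyl oxidases. Of 19 genes of modification and folding, 17 fell in wild type from E18.5 to P15 (median -1.10) and 12 from P15 to P90 (median -0.46), none rising in either step. P4ha3, a subunit of prolyl 4-hydroxylase, fell by -3.14 ± 0.16, P3h1, which hydroxylates prolines at other positions, by -1.39 ± 0.10 and Colgalt2, a collagen galactosyltransferase, by -1.66 ± 0.14. In the second step the lysyl hydroxylases Plod2 and Plod1 fell by -1.05 ± 0.13 and -0.73 ± 0.11.

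Of 10 genes of propeptide removal and cross-linking, 7 fell to P15, led by p by the procollagen proteinase Adamts3 (-2.11 ± 0.09), where 21.9% of all genes fell, and from P15 to P90 6 fell and 1 rose, where 9.78% and 8.08% did. Lox, the main lysyl oxidase, had group means of 6.90, 6.23 and 4.46 at the 3 ages in wild type and fell by -1.76 ± 0.20 in the second step (limma adjusted p = 0.00011). Of 8 collagen receptors, 5 fell and 1 rose to P15 (21.9% and 19.7% of all genes) and 5 fell to P90 (9.78%). The cartilage integrin Itga10 fell in both steps, by -1.16 ± 0.10 and -0.56 ± 0.10.

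Of 9 transcription factors of collagen genes, 6 fell and 1 rose to P15 (21.9% and 19.7% of all genes), then 3 fell and 2 rose (9.78% and 8.08%). Sox9, the factor that sets the chondrocyte programme with Sox5, had wild-type means of 7.21, 5.28 and 5.58, falling by -1.93 ± 0.06 and then rising by 0.30 ± 0.06 (limma adjusted p = 0.0065). Sp7, a factor of osteoblasts, had means of 5.54, 6.14 and 5.31 and fell by -0.82 ± 0.11 in the second step. Between genotypes none of the genes of these 4 lists was called by limma at any age. In list order, 2 of 19, 2 of 10, 1 of 8 and 2 of 9 were higher in the null in value at E18.5 (45.6% of all genes). At P15 these were 8, 8, 5 and 6 (53.7%), and at P90 they were 15, 6, 6 and 7 (53.6%). The smallest p values at E18.5 included Sp7 (-0.42 ± 0.11, limma adjusted p = 0.16) and Colgalt2 (-0.48 ± 0.14, limma adjusted p = 0.18). At P90 Colgalt2 was at 0.51 ± 0.14 and Lox at 0.52 ± 0.20, both higher in the null in value (limma adjusted p = 0.15 and 0.36).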

How the data were processed

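Trizol RNA of vestibular organ, 100 ng per array, was hybridised to Affymetrix Mouse Gene 1.1 ST arrays, per the labels' protocols and the series' design text. The authors deposited 1 table of values on a log scale, entered here as natural log from the range of the values, for 28853 probe sets in 18 arrays; no source used here states the base, the background correction or the summarization. Deposited array medians ran from 3.88 to 4.82, so the arrays were quantile normalized, which makes every difference relative to the other genes. Probe sets with 1 symbol (21789) were named through the platform annotation and RefSeq gene identifiers (21698 matched), and the probe set with the highest mean stood for a gene. Col6a5 and Col6a6 had 2 probe sets each. All 19938 genes were fitted with a mean per group in limma 3.58.1 (lmFit and eBayes, R 4.3.3), with Benjamini-Hochberg adjustment over all genes, and the fits were tested on simulated data. No filter on dim genes was used. None of the collagens had its highest group mean among the dimmest 20% of genes; Col19a1 came closest (3.51).

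Members, classes, marker and pathway lists were chosen with earlier results of these data known. Genes named are the principal chains and their partners, the 5 with the smallest p between genotypes at each age, the 5 largest called rises and falls in each wild-type step, and, from the pathway lists, genes among the 3 with the smallest p in a comparison. The genotype values of Col2a1 at E18.5 and P15 and of Col9a1 at P15, which are principal chains, lie outside the 5. Col5a1, Col5a3, Col15a1, Col18a1, Col27a1 and the genes whose call changed with an array left out were named after their values were seen. Replicate numbers did not pair the arrays (correlations of deviations -0.18 to 0.24). Alternatives were other scalings, probe set choice, a filter, a replicate block, another variance prior, sex, the 4 arrays standing apart, and each array left out.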

Additional observations from a re-analysis of the deposited data

Results flagged for a closer look

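For 2 collagens the null and wild-type arrays lay apart in opposite directions at E18.5 and P15. Col9a2, the second chain of type IX, read 7.34, 7.14 and 7.32 in the null against 7.50, 7.38 and 7.45 at E18.5, and 5.27, 5.45 and 5.32 against 5.12, 5.22 and 4.90 at P15. Its genotype difference was 0.445 higher at P15 than at E18.5, which the limma test of that difference did not call (adjusted p = 0.38). Col8a1, a network chain of endothelium and cornea, read 6.31, 6.29 and 6.31 against 6.40, 6.45 and 6.56 at E18.5, and 5.53, 5.56 and 5.63 against 5.38, 5.42 and 5.33 at P15. Its genotype difference was 0.362 higher at P15 (limma adjusted p = 0.61). Groups of 3 arrays are too small for a test of single outlying arrays.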

How the results depend on the processing

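The counts of collagens called were recomputed under 10 alternatives besides leaving out each array. Most recomputed counts belong to comparisons of genotypes with 0 called, which left little room to move. Direction was not weighed. On the values as deposited, the splits of 12 higher and 13 lower (wild type P15 to P90) and 10 and 11 (null P15 to P90) were thus taken as kept. In 207 of 210 recomputed counts the value stayed within 1.5 times the reported one. The exceptions were wild type P15 to P90, at 6 in place of 22 without the 4 arrays that stood apart (chosen after seeing the data), genotype P90, at 1 (Col26a1) without P90 wild-type array 3, and the difference of the E18.5 to P15 steps, at 1 (Col10a1) without P15 null array 1. With single arrays left out, the calls ran from 31 to 34 for wild type E18.5 to P15, 16 to 23 for wild type P15 to P90, 30 to 33 for null E18.5 to P15, 19 to 21 for null P15 to P90, 0 to 1 for genotype P90 and for the difference of the E18.5 to P15 steps, and stayed at 0 for genotype E18.5, genotype P15, the genotype mean, the difference of the P15 to P90 steps and the F-test. With the replicate number as a block the counts were 35, 21, 33 and 20 for the 4 age steps and 0 for every comparison of genotypes. As the numbers do not pair the arrays, that fit is only an alternative. Of single genes named by rank, 470 of 512 recomputed differences kept direction and call and 41 lost the call. Those 41 were all in age steps, since no genotype difference had a call to lose. Col13a1 at P90 turned to 0.016 with a term for the 4 arrays. The cause was not tested. A fit on the arrays compared alone is the same as the reported one for the genotype mean and the F-test, so it was not run. On the values as deposited the median difference of all genes was 0.39 for null P15 to P90, 0.25 for null E18.5 to P15 and 0.20 for wild type P15 to P90, against 0.02, -0.04 and 0.01 after quantile normalization. No detection call bounds the dim chains.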
